A study of Mus musculus with 3 samples.

Results

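The genes Gpx1, Gpx2, Gpx4, Prdx1, Txn1, Txnrd1, Nqo1, Gclc, Gclm and Srxn1 of the glutathione and thioredoxin antioxidant systems were followed by symbol among the 35824 genes of an RNA-seq count table, and all 10 were found. The table describes intestinal epithelial cells (IEC) sorted from mouse small intestinal organoids (SIO), which are crypt-derived epithelial structures grown in Matrigel. The SIO came from the ileum of female CD45.1 C57BL/6 mice, aged 6 to 8 weeks by the sample labels, and were co-cultured for 4 days with type 3 innate lymphoid cells (ILC3). All libraries share the condition IEC + ILC3, including the added cytokines IL-2, IL-7 and IL-15, and the organoid medium contained N-acetylcysteine and β-mercaptoethanol, which are reducing agents. Organoid cells were isolated by FACS, and the ILC3 had been isolated from the small intestinal lamina propria of female reporter mice. The labels name 3 biological replicates, A, B and C, of which A and B are marked as included in the study's final analysis and C as excluded. Epithelium cultured without ILC3 was not analysed here, and no level given can be read as an effect of ILC3.

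Cells remove hydrogen peroxide and lipid peroxides by parallel routes. Glutathione peroxidases draw electrons from glutathione, whose synthesis is limited by the glutamate-cysteine ligase made of Gclc and Gclm, while peroxiredoxins draw them from thioredoxin, which thioredoxin reductase keeps reduced with NADPH. Several of these genes are targets of the transcription factor NRF2, which binds antioxidant response elements (ARE). In the gut, Gpx2 is the epithelial glutathione peroxidase and is known for its expression in crypts.

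The promoters are shown because the genes are often discussed as 1 regulated set and because letters resembling an ARE were found in some but not others. RefSeq promoter windows of GRCm38.p6, from 250 bases before to 50 bases after a transcription start, were found for 9 of the 10 genes, in 14 windows, the exception being Gclc. The letters TGACNNNGC, searched on both strands, occurred in 4 of the 14 windows and 4 of the 9 genes (Gclm, Prdx1, Srxn1 and Txnrd1), against 12.4% of all 32851 RefSeq promoters and 14.0% of 27025 genes. The AP-1 letters TGANTCA, which can overlap an ARE, occurred in Prdx1 and Srxn1, against 7.81% of all promoters. Each stretch is given 5′ to 3′ along the gene, on the plus strand, with the match in capitals. The Gclm stretch lies at chr3:122245393-122245461 and its ARE match starts 134 bases upstream of the start. The Prdx1 stretch lies at chr4:116685436-116685504, with an ARE match 133 bases upstream that holds an AP-1 match within it. The Txnrd1 stretch belongs to the second of its 3 windows, at chr10:82859084-82859152, with the match 92 bases upstream. The Srxn1 stretch lies at chr2:152105449-152105515 and shows an AP-1 match 45 bases upstream, while its ARE match lies 28 bases downstream of the start and is not printed.
Gclm ARE: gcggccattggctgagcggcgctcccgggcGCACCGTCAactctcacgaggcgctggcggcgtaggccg
Prdx1 ARE: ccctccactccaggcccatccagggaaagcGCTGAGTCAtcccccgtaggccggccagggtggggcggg
Txnrd1 ARE: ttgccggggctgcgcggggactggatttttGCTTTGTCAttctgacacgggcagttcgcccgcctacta
Srxn1 AP-1: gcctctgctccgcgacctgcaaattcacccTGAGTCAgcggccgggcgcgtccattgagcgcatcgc
The ARE matches are on the strand opposite to the gene and therefore appear as the reverse complement of the searched letters. A match describes the letters and not a bound site, and binding was not measured.

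Library totals ran from 17946361 to 28913885 counts, and 11986 to 12964 genes had at least 10 counts. All 12 epithelial markers were detected, with summed levels of 13307 to 14510 CPM (counts scaled to library size with TMM, edgeR's trimmed mean normalisation). Of 16 lymphocyte and ILC3 markers, 11 were at 0 in every library. Summed stromal and endothelial markers reached at most 6.79 CPM, with Vim at 46, 135 and 0 counts in A, B and C. The 10 myeloid and B cell markers summed to 21.9 to 52.3 CPM. Most of this was Cd14, at 17.2, 23.0 and 44.0 CPM in A, B and C, and 3 of these markers were at 0 everywhere. Libraries A and B differed far beyond counting noise (chi-square per gene 69.6 over 13816 genes), so they are not copies of 1 library, but the labels do not state that they came from separate cultures.

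The 10 genes together received 0.624%, 0.748% and 0.716% of all counts in A, B and C. Gpx2 alone supplied 33.5%, 45.2% and 39.7% of these counts, and Gpx2 with Prdx1 supplied 61.4%, 66.9% and 69.9%. Transcripts of the epithelial glutathione peroxidase and of a cytosolic peroxiredoxin thus made up most of the set in every library. In bulk samples, fewer cells of a type and less RNA per cell cannot be told apart, and this holds for every level below.

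**Figure D1:**
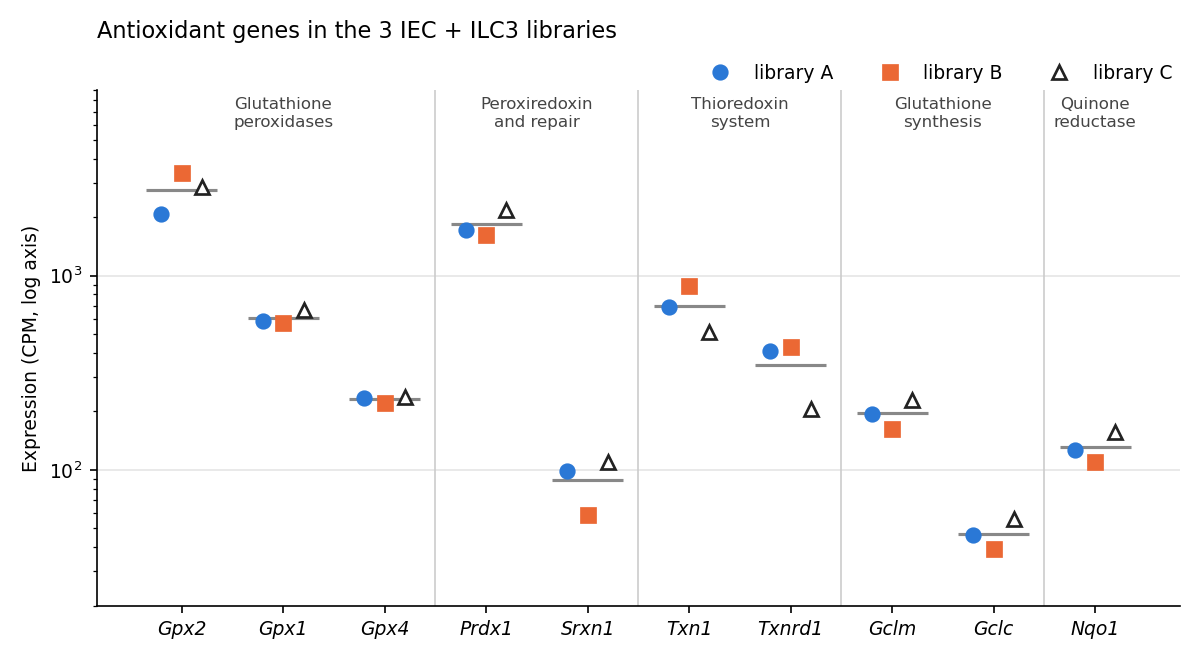
Expression of the 10 antioxidant genes (CPM, log axis) in libraries A, B and C of IEC + ILC3, grouped by role, with a grey line at the mean of the 3 libraries. Gpx2 and Prdx1 stand highest, at 2774 and 1842 CPM on average, Gclc lies lowest at 47.0 CPM, and Txnrd1 has its lowest point in C.

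Gpx2 (chromosome 12, 76792333 to 76795554, minus strand) had the highest level of the glutathione peroxidases, at 2067, 3389 and 2867 CPM in A, B and C (2774 ± 666, SD, n = 3). The libraries marked as included were the lowest and the highest, with a ratio of B to A of 1.64, and C lay between them. Gpx2 lies within Fntb on the opposite strand, and since SMART-Seq2 does not keep strand, reads of the pair cannot be told apart where they overlap. Fntb held 375 to 628 counts against 37459 to 82175 for Gpx2.

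Gpx1 (chromosome 9, 108338903 to 108340343), the widely expressed cytosolic enzyme, measured 587, 568 and 664 CPM in A, B and C (606 ± 51.0, SD, n = 3). Gpx4 (chromosome 10, 80047166 to 80056439), which reduces phospholipid hydroperoxides within membranes and so guards against ferroptosis, was the steadiest gene of the set, at 235, 219.8 and 237 CPM (231 ± 9.52). For Gpx4 the exact 95% Poisson intervals of A (228 to 242 CPM) and C (232 to 243 CPM) overlapped, so these libraries were not separated at this depth. These intervals reflect counting error alone, because they are computed from each count by itself. SMART-Seq2 reads carry no molecular identifiers, so amplified copies of a molecule cannot be removed and the intervals may be too narrow. A transcribed pseudogene of Gpx4, Gpx4-ps2, held 110 to 233 counts, equal to at most 3.43% of Gpx4, and reads between these copies are uncertain.

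The ratio of Gpx2 to Gpx1, each as CPM per kilobase of transcript, was 2.76, 4.68 and 3.39 in A, B and C, and Gpx2 exceeded Gpx1 in each library but by a varying margin (mean 3.61, or 2.06 with merged exons). The ratio of Gpx4 to Gpx1 was steadier, at 0.374, 0.362 and 0.334. The remaining family members, chosen for mention after their values were seen, were scarce. Gpx5, Gpx6 and Gpx8 had 0 counts in every library, Gpx7 had 4 counts in B and none in A and C, and Gpx3, the secreted plasma enzyme, had 7 and 8 counts in A and B and 0 in C, where a limit of 3 counts allows up to 0.105 CPM. The glutathione peroxidase transcripts of these IEC were therefore almost entirely Gpx2, Gpx1 and Gpx4.

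Prdx1 (chromosome 4, 116685544 to 116700822) encodes a cytosolic peroxiredoxin that reduces hydrogen peroxide with electrons from thioredoxin. Its level was 1723, 1623 and 2180.3 CPM in A, B and C (1842 ± 297, SD, n = 3), with A and B close together and C above both. Srxn1 (chromosome 2, 152105516 to 152111376) encodes sulfiredoxin, which restores over-oxidised peroxiredoxins. It measured 98.3, 58.3 and 110.1 CPM (88.9 ± 27.1), and here B stood low, at 0.594 of the level in A. The per-kilobase ratio of Prdx1 to Srxn1 was accordingly highest in B, at 48.5, 77.0 and 54.8, and its mean of 60.1 became 20.1 with merged exons as the length.

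Txn1 (chromosome 4, 57943373 to 57956411, minus strand) encodes cytosolic thioredoxin and measured 689, 889 and 514 CPM in A, B and C (697 ± 188, SD, n = 3). Txnrd1 (chromosome 10, 82833951 to 82897712), its NADPH-dependent reductase and a selenoprotein, measured 409.6, 431 and 205 CPM (349 ± 125). Both genes were highest in B and lowest in C, and no other gene of the set had this order. For Txnrd1 the libraries A and B differed little, with a ratio of B to A of 1.05, whereas C had 0.487 of their mean. The per-kilobase ratio of Txn1 to Txnrd1 was 4.27, 5.24 and 6.37, and its mean rose from 5.29 to 14.0 when merged exons gave the length.

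Gclc (chromosome 9, 77754535 to 77794485) and Gclm (chromosome 3, 122245557 to 122270732) encode the catalytic and the modifier subunit of glutamate-cysteine ligase. Gclc measured 46.0, 39.1 and 56.0 CPM in A, B and C (47.0 ± 8.47, SD, n = 3). Gclm measured 194, 163 and 228 CPM (195 ± 32.5). Both subunits were lowest in B and highest in C, and their ratio per kilobase moved little, at 0.122, 0.124 and 0.127, with the highest 1.04 times the lowest. The size of this ratio depends on the transcript length used, since its mean rose from 0.124 to 0.392 when the longest coding transcript replaced the mean coding transcript length. Nqo1 (chromosome 8, 107388225 to 107403206, minus strand), a quinone reductase and a standard NRF2 target, measured 127, 109.6 and 157 CPM (131 ± 24.0), with the same order of libraries as Gclc and Gclm.

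**Figure D2:**
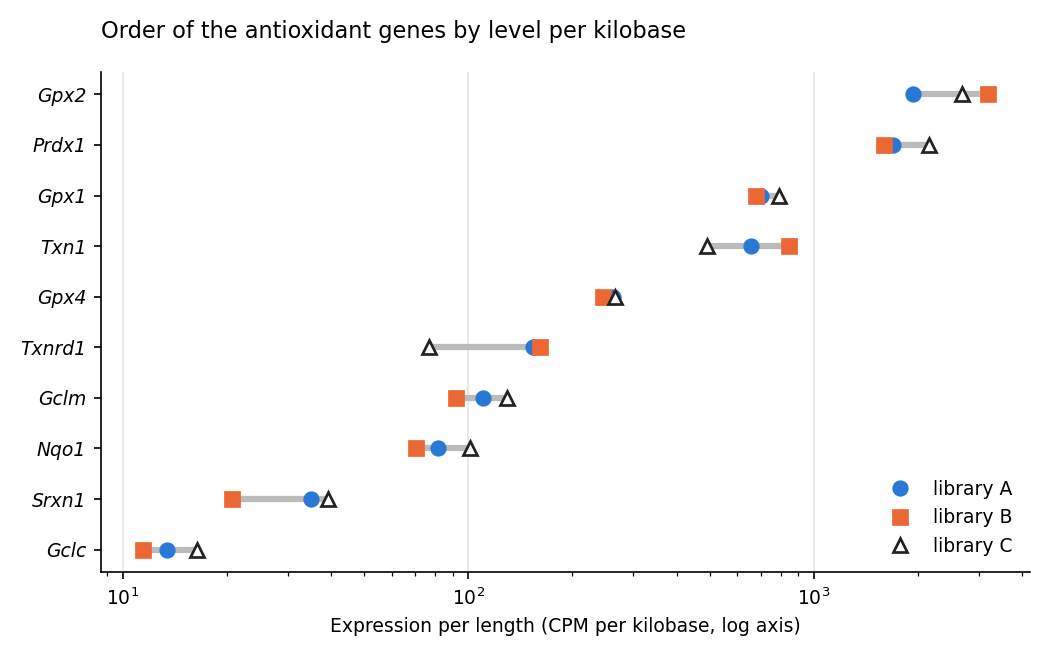
Level of each gene as CPM per kilobase of mean coding transcript length (log axis), ordered by the mean of libraries A, B and C, with a grey bar from the lowest to the highest library. Gpx2 leads at 2600 CPM per kilobase and Gclc ends at 13.7. Among neighbours, the bars of Gpx2 and Prdx1, Gpx1 and Txn1, Txnrd1 and Gclm, and Gclm and Nqo1 overlap. The bars of Txnrd1 and Nqo1 also overlap.

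Per kilobase, the order of mean levels was Gpx2 (2600 ± 624 CPM per kilobase, SD, n = 3), Prdx1 (1813 ± 293), Gpx1 (724 ± 60.9), Txn1 (663 ± 179), Gpx4 (257 ± 10.6), Txnrd1 (130.5 ± 46.7), Gclm (110.4 ± 18.4), Nqo1 (84.5 ± 15.5), Srxn1 (31.6 ± 9.64) and Gclc (13.7 ± 2.47). Among neighbours in this order, the ranges over libraries overlapped between Gpx2 and Prdx1, Gpx1 and Txn1, Txnrd1 and Gclm, and Gclm and Nqo1. Txnrd1 (76.7 to 161) and Nqo1 (70.6 to 101), which are not neighbours, overlapped as well, and in C Txnrd1 lay below Nqo1. Within each library Gpx2 nevertheless exceeded Prdx1, by ratios of 1.14, 1.99 and 1.25, and Gclm exceeded Nqo1, by 1.34, 1.31 and 1.28. Gpx1 and Txn1 changed places in B, and Txnrd1 and Gclm in C, so these neighbours did not differ beyond their spread. The other 5 pairs of neighbours had ranges that did not overlap. The order also depends on the transcript length used: with merged exons, Txn1 took place 2, Prdx1 place 3 and Gclm place 9. Among 11208 genes with at least 10 counts in every library and a transcript length, Gpx2 ranked 42, 25 and 21 in A, B and C, and Prdx1 ranked 50, 65 and 38. Gclc, the catalytic subunit of the rate-limiting enzyme, ranked 5618, 6016 and 5037, near the middle of the same genes. Txnrd1 held place 6 of the 10 in A and B and place 8 in C, and its rank among all these genes was 746, 697 and 1765 in A, B and C.

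**Figure D3:**
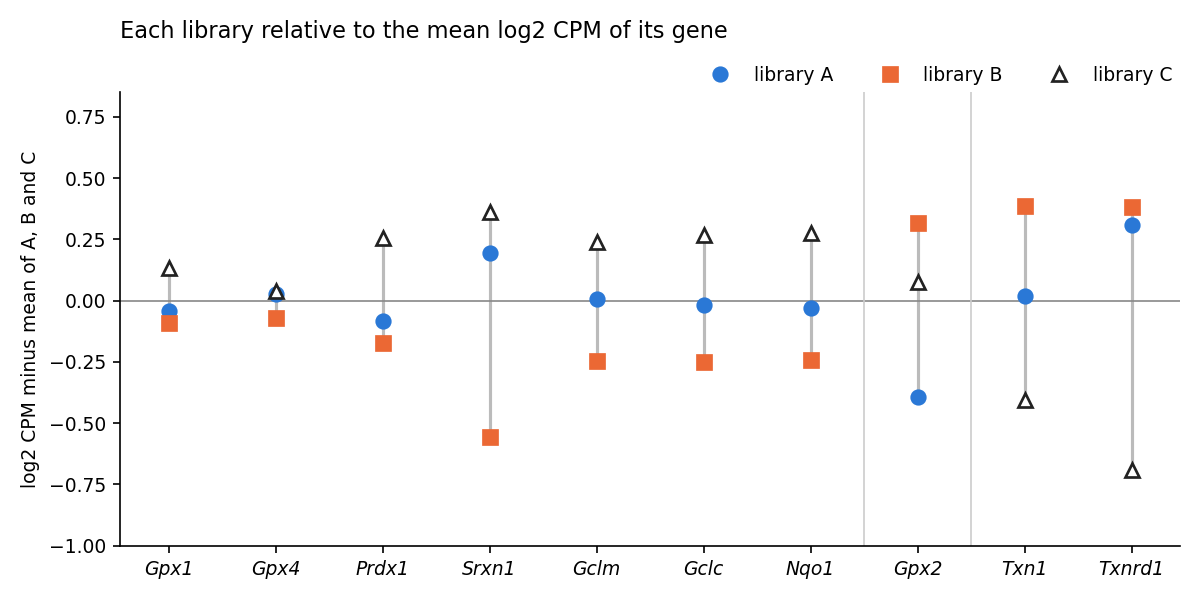
Log2 CPM of each gene in libraries A, B and C after subtraction of the mean of the 3 libraries, with a grey line from the lowest to the highest library. The 7 genes on the left run from C over A to B, Gpx2 runs from B over C to A, and Txn1 and Txnrd1 run from B over A to C.

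When the libraries were ordered within each gene, 7 of the 10 (Gpx1, Gpx4, Prdx1, Srxn1, Gclm, Gclc and Nqo1) were highest in C and lowest in B, against 24.2% of 11232 genes with at least 10 counts in every library. Under plain library totals Gpx4 left this group and 6 of 10 remained in it, against 23.9% of genes. With the dependence on transcript length taken out, C no longer lay above A and B on average for Gpx1 and Gpx4. Txn1 and Txnrd1 had the order B, A, C, which 21.9% of genes shared, and Gpx2 had the order B, C, A, which 9.40% shared. These shares are descriptions, since 3 libraries of 1 condition allow no test of an order. The set was steadier than the average gene in these libraries, with a median SD of log2 CPM of 0.26 against 0.40 over the same 11232 genes, and a median absolute log2 difference between A and B of 0.22 against 0.35 over 11989 genes. The set and all genes were not matched on level here.

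The only contrast the labels allow sets library C, marked as excluded, against A and B. It compares libraries and not conditions, and it assumes that C varies as A and B do. In edgeR's quasi-likelihood test with Benjamini-Hochberg adjustment over 13604 genes, 0 of the 10 antioxidant genes were called at an adjusted p under 0.1, against 6.56% of all genes tested, of which 1.36% of all genes were higher in C and 5.2% lower. DESeq2's Wald test called 1 gene of the 10, Txnrd1, against 11.9% of all genes tested. The median log2 fold change of the set was 0.28, beside −0.10 over all genes tested, and its median absolute log2 fold change was 0.39, beside 0.61.

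Txnrd1 had the largest difference of the set, at a log2 fold change of −1.04 (SE 0.30, edgeR adjusted p = 0.106), just outside the threshold. Over 7 other ways of scaling, filtering or testing, its log2 fold change stayed between −1.06 and −0.97, and its adjusted p ran from 0.0103 to 0.129, with a call in 4 of the 7. The call for Txnrd1 therefore depended on the processing, while its direction did not. Txn1 followed with a log2 fold change of −0.62 (SE 0.31, adjusted p = 0.279). The glutathione peroxidases were close to 0, at 0.20 (SE 0.28) for Gpx1, 0.07 (SE 0.35) for Gpx2 and 0.06 (SE 0.28) for Gpx4. These 3 signs turned once the dependence on transcript length had been taken out, to −0.02, −0.14 and −0.17, so no direction is given for them. The remaining genes had positive log2 fold changes that did not pass the test, from 0.35 (SE 0.29, adjusted p = 0.488) for Gclm to 0.49 (SE 0.36, adjusted p = 0.428) for Srxn1. With standard errors of this size, differences of the size seen for these genes could not be separated from the spread that the fit estimated.

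**Figure D4:**
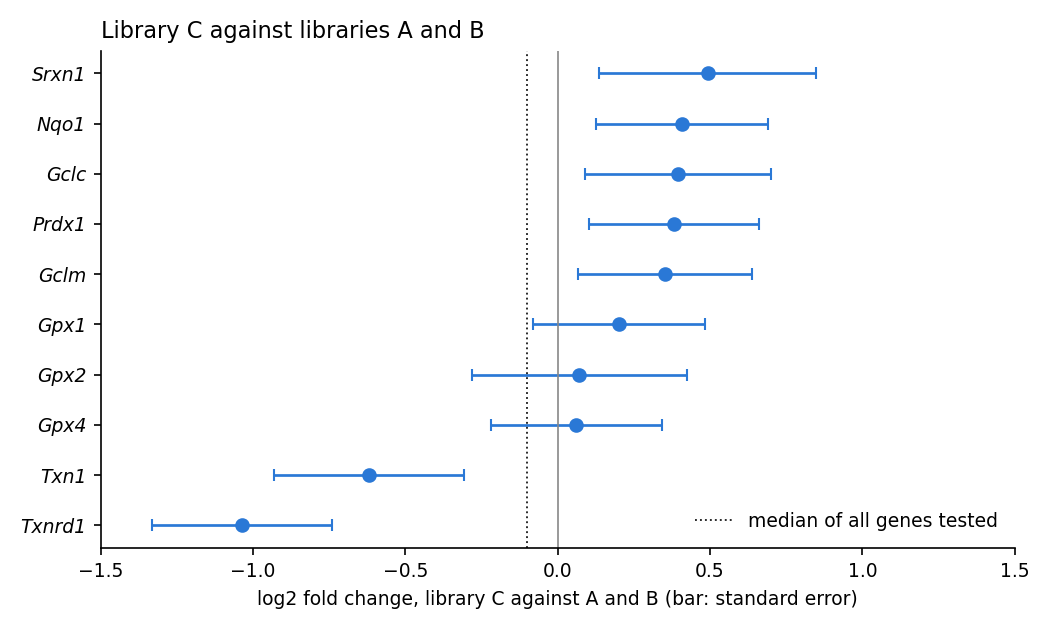
Log2 fold change of library C against A and B from edgeR for each antioxidant gene, with bars of 1 standard error and a dotted line at the median of all genes tested (−0.10). Txnrd1 (−1.04) and Txn1 (−0.62) lie left of 0 and the other 8 genes lie between 0.06 and 0.49.

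Markers of epithelial cell types moved in the same contrast and are given beside it. Of all genes tested, 5.2% were called lower in C and 1.36% higher. Of 10 goblet markers, 4 were called lower in C, including the mucin Muc2 with 256, 219 and 50.4 CPM in A, B and C, and the summed goblet level was 2701, 3413 and 2287 CPM. Other goblet markers had their highest value in C without being called, such as Spink4 with 318, 499 and 649 CPM and Agr2 with 445, 367 and 584 CPM. Tuft markers summed to 56.8, 86.0 and 21.2 CPM, and Trpm5, Dclk1 and Pou2f3 were at 0 counts in C. They entered the test only through A and B, so no count of tuft calls is given. No Paneth, enterocyte or stem and progenitor marker was called, at summed levels of 14424 to 21140, 3948 to 5855 and 7883 to 9639 CPM. The dissociation and heat shock genes summed to 4552 to 4947 CPM, and of these Dusp1 was called higher in C but lost its call under 3 of 7 other settings, while Hspa1a was at 0 in C and entered the test only through A and B. The part of these cell types and of stress in the levels of Txn1, Txnrd1 or the other antioxidant genes was not tested.

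Among 14 other thioredoxin and glutaredoxin genes, all tested, 1 was higher and 1 lower in C and the median log2 fold change was 0.17. Over all genes tested, 1.36% were called higher in C and 5.2% lower, which are the shares to set beside every list below. Txnip, which encodes the thioredoxin-interacting protein that binds and inhibits thioredoxin, measured 372, 376 and 98.9 CPM in A, B and C. A and B were nearly equal and C was far below both (log2 fold change −1.92, SE 0.31, edgeR adjusted p = 0.0287), and Txnip was called under each of the 7 other settings. Txnip, Txn1 and Txnrd1 had their lowest value in library C, as did 38.8% of 11232 genes, and Txn1 and Txnrd1 were not called. Txndc9, a thioredoxin domain protein, measured 80.9, 63.1 and 166 CPM (log2 fold change 1.20, SE 0.29, adjusted p = 0.0773) and lost its call when length or GC trends were removed. Mitochondrial Txn2 measured 253, 228 and 321 CPM (log2 fold change 0.42, SE 0.28, adjusted p = 0.392), and the glutaredoxin Glrx measured 160.2, 156 and 167 CPM.

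Among 15 other peroxidases, superoxide dismutases and catalase, 10 could be tested, none was called, and the median log2 fold change was 0.24. The most abundant per kilobase was Prdx6, a peroxiredoxin that uses glutathione, at 1129, 944 and 1225 CPM, followed by the copper-zinc superoxide dismutase Sod1 at 226, 286 and 304 CPM and by Prdx2 at 376, 385 and 436 CPM. Each of these was highest in C, without passing the test, as were 41.1% of 11232 genes whether called or not. Prdx4, Prdx5 and Ccs were also highest in C, while Sod2 was lowest in C and Prdx3 and Cat were highest in A. Among 18 genes of glutathione synthesis, turnover and recycling none was called, with a median of −0.39. The NADPH-producing isocitrate dehydrogenase Idh1 measured 1118, 707 and 1339 CPM, and glutathione reductase, Gsr, 723, 636 and 808 CPM. Both had the order of libraries seen for Gclc and Gclm. Pgd, the 6-phosphogluconate dehydrogenase of the pentose phosphate route, measured 663, 767 and 458 CPM, in the order of Txn1. In this list 4 of 18 genes had each of these orders, against 24.2% and 21.9% of 11232 genes.

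Among 13 genes of NRF2 and its regulators none was called and the median log2 fold change was −0.47. Sqstm1, the p62 adaptor that binds KEAP1, measured 331, 378 and 246 CPM, and Dpp3, another KEAP1 binding protein, 259.8, 249.7 and 253 CPM. The shares over all genes tested were 1.36% called higher in C and 5.2% called lower. Among 36 other NRF2 target genes, 34 were tested, 1 was higher in C and none lower, with a median of 0.06. The gene called was the glutathione transferase Gstm3, at 1240.3, 562 and 2696 CPM (log2 fold change 1.58, SE 0.43, adjusted p = 0.0966), and 3 of the 7 other settings lost it. The ferritin light chain gene Ftl1 measured 2764, 2983 and 5669.8 CPM, just outside the threshold (log2 fold change 0.98, SE 0.27, adjusted p = 0.102), while the heavy chain gene Fth1 measured 3788, 3553 and 4155 CPM (log2 fold change 0.18, SE 0.28). The order C, A, B that 7 of the 10 antioxidant genes had was found in 9 of the 34 other NRF2 targets. This is near its share of 24.2% among 11232 genes.

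Gpx1, Gpx2, Gpx4 and Txnrd1 encode selenoproteins, so the genes of that class were set beside them. Over all genes tested, 1.36% were called higher in C. Among 12 selenoprotein synthesis genes none was called (median 0.30), and Sephs2, which makes the selenium donor, measured 450.3, 425 and 606 CPM. Among 19 other selenoproteins, 16 were tested and 2 were higher in C, with a median of 0.20. These were Selenos, with 123, 111 and 273 CPM (log2 fold change 1.22, SE 0.27, adjusted p = 0.0632), and Selenok, with 66.9, 75.3 and 146 CPM (log2 fold change 1.04, SE 0.28, adjusted p = 0.0953), both membrane proteins of the endoplasmic reticulum. Selenos lost its call under 1 of the 7 other settings and Selenok under 3.

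Among 19 oxidases that produce superoxide or hydrogen peroxide, 14 were tested and 1 was called. Cyba, the p22phox subunit of NADPH oxidases, measured 115, 116 and 287 CPM in A, B and C (log2 fold change 1.32, SE 0.27, adjusted p = 0.0526) and was called under each of the 7 other settings, in a list with a median of −0.31. Among 16 genes of lipid peroxidation and ferroptosis, where Gpx4 acts, 12 were tested and 1 was called. Aifm2, the ferroptosis suppressor that reduces coenzyme Q, was lower in C, at 15.7, 8.87 and 2.09 CPM (log2 fold change −2.55, SE 0.70, adjusted p = 0.0996), and lost its call under 3 of the 7 other settings. The median of this list was −0.09. For both lists, the share called over all genes tested was 6.56%, with 1.36% higher in C and 5.2% lower.

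**Figure D5:**
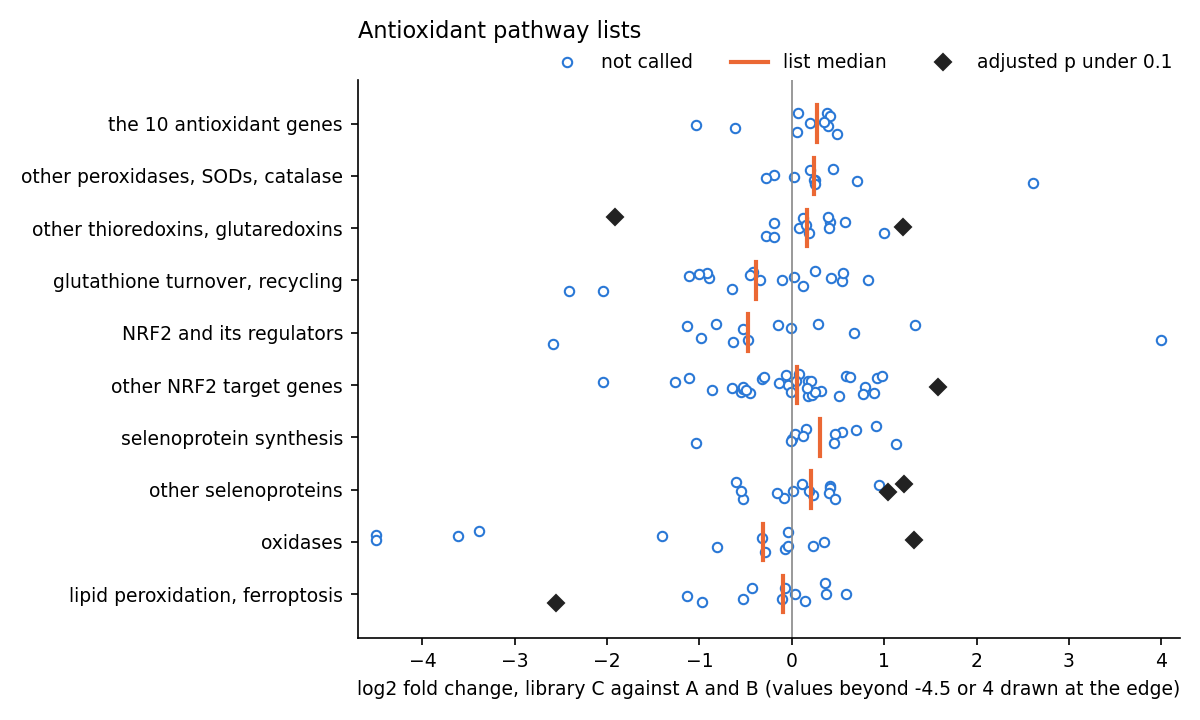
Log2 fold change of library C against A and B for the 10 antioxidant genes and 9 pathway lists, 1 symbol per tested gene, with diamonds for an edgeR adjusted p under 0.1 and an orange line at each list's median. The diamonds are Txnip and Aifm2 on the left of 0 and Txndc9, Gstm3, Selenos, Selenok and Cyba on the right, and none belongs to the 10 antioxidant genes.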

How the data were processed

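SMART-Seq2 reads were trimmed by the authors (Trimmomatic 0.39), assigned to GRCm38.p6 transcripts (Salmon 0.14.1) and combined per gene by tximport. The submitters' processing notes name the same versions. The table deposited by the authors holds estimated counts, which were whole numbers as they stood. Symbols, coordinates and transcript lengths were taken from GENCODE M21 (GRCm38). Where a symbol had several rows, the row with the highest total was used. CPM were computed with TMM factors, and CPM per kilobase used the mean length of the coding transcripts of a gene. The contrast of C with the mean of A and B used the quasi-likelihood test of edgeR 4.0.16 in R 4.3.3 after filterByExpr, with Benjamini-Hochberg adjustment at 0.1, the threshold of the study. This leaves 1 residual degree of freedom, the difference between A and B, since library C alone is fitted exactly. The fit combines it with a dispersion estimated over all genes. The p-values therefore hold no measure of the spread among libraries like C, and the spread between A and B may be technical. On simulated counts for this contrast, the share of false calls lay above the nominal level in most runs. Alternatives were DESeq2 size factors, plain totals, no filter, at least 10 counts in every library, the Wald test of DESeq2 1.42.0, loess removal of length or GC trends (span 0.5), an adjusted p under 0.05, other transcript lengths, and leaving out each library. The 10 genes and the lists were chosen with earlier results of these data known. Genes named from the lists are the 3 most abundant per kilobase and up to 3 called in each direction, and not every gene so named is described, with 1 marker and the summed level of its list not reported here. Promoters were read from RefSeq tables, and Python 3.11.15 with pandas 2.3.3 and matplotlib 3.10.9 handled tables and plots.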

Additional observations from a re-analysis of the deposited data

How the results depend on the processing

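Against 892 genes called (20.7% of them higher in C), 2402 were called with no filter on low counts, 1618 by DESeq2's Wald test, 557 with the length trend removed, 479 with the GC trend removed and 276 at an adjusted p under 0.05; the share higher in C was 34.3% with no filter and 33.4% with at least 10 counts in every library. Of the 10 antioxidant genes, only Txnrd1 was called under plain totals, no filter, at least 10 counts in every library and the Wald test. The shares of all genes tested called under these settings were 9.05%, 13.8%, 9.17% and 11.9%, in the same order. Under DESeq2 size factors and removal of the length or GC trend 0 were called, against 5.21%, 4.09% and 3.52% of all genes. At an adjusted p under 0.05, 0 were called too. With the length trend removed, log2 fold changes turned from 0.20 to −0.023 for Gpx1, from 0.07 to −0.14 for Gpx2 and from 0.06 to −0.17 for Gpx4, and the cause was not tested. Gpx2 rests on the library it is compared with, at −0.24 without replicate 1 and 0.47 without replicate 2, values that have no test. Leaving out a library gave no counts of calls, since no residual degree of freedom remained. The order per kilobase depends on transcript length: Gpx2 held place 1, Gpx4 place 5 and Gclc place 10 under every length tried, the other 7 genes changed place under at least 1 of them, and mean levels with the longest coding transcript were 803 CPM per kilobase for Prdx1 and 34.95 for Gclm. Depth was ample for these genes, of which Gclc had the fewest counts (833 in A).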
